A study of Mus musculus with 24 samples.

Results

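Calretinin (Calb2), parvalbumin (Pvalb) and calbindin-D28k (Calb1) are small cytosolic proteins that bind calcium. These 3 genes, of 19057 genes with a probe of their own, were chosen by name from the platform's gene symbols. The choice was made with earlier results on these data in view, in which Calb2 was far lower in the lateral than in the medial motor column of wild-type mice. That contrast is therefore described below without a test. The genes have 4 probes: 2 for Calb2 and 1 each for Pvalb and Calb1. Each gene is shown by its probe of highest mean signal.

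Expression was measured on 24 Illumina mouse bead arrays, with 3 biological replicates in each of 8 groups, all from FVB mice at postnatal day 4. SMA mice and wild-type (WT) mice were compared in 4 tissues: medial (MMC) and lateral (LMC) motor column of the spinal cord, dorsal root ganglion (DRG) and raphe. SMA is taken to stand for spinal muscular atrophy, a loss of motor neurons that follows from too little SMN protein. Which allele the SMA mice carried, what was collected from each tissue and how are not given in the sources used here. MMC neurons drive axial muscles and LMC neurons drive limb muscles; the DRG holds sensory neurons, and the raphe holds serotonergic neurons.

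Proteins of this family bind calcium through paired helix-loop-helix folds called EF hands. Parvalbumin is a slow buffer, whereas calretinin and calbindin bind calcium faster and calbindin also acts as a sensor. In the spinal cord and brainstem they mark mainly interneurons, with calbindin found in Renshaw cells, and motor neurons as a class are known for weak calcium buffering. In the DRG, parvalbumin marks proprioceptors, the sensory neurons of muscle stretch, and is also known from fast skeletal muscle. In bulk RNA, more cells of a type and more RNA per cell cannot be told apart.

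Smn1, the gene of the SMN protein, was above background on 0 of 12 SMA arrays and on 12 of 12 WT arrays. Avil, a sensory neuron marker, averaged a log2 level of 11.18 in SMA DRG and 11.30 in WT DRG and was above background on no array of another tissue. Tph2, the serotonin-synthesis enzyme of neurons, averaged 11.88 in SMA raphe and 11.18 in WT raphe. Tph2 was also above background on all 3 SMA LMC arrays, at 7.03 on average, on 2 of 3 WT LMC arrays, at 5.50, and on every DRG array, at 5.91 in SMA DRG and 5.96 in WT DRG. Chat, which makes the motor neuron transmitter, averaged between 7.18 and 8.04 in the 4 motor column groups, against 5.03 to 5.60 elsewhere. Lhx3, a factor of MMC neurons, averaged 6.30 in SMA MMC and 6.28 in WT MMC; it was above background on no SMA LMC array, but on all 3 WT LMC arrays, at 5.47, and on every raphe array. Probes above background, meaning a detection p-value below 0.05, made up 33.7 to 49.7% of an array. SMA LMC replicate 2 had the lowest share, and its mean correlation with the other arrays of its group was also the lowest of all, at 0.850. WT MMC replicate 3 was next in both, at 38.2% and 0.854, and held the highest Calb2 and Pvalb of the WT MMC arrays. Each tissue was on a chip of its own, so tissue and chip cannot be told apart; on each chip SMA and WT arrays held different positions, so genotype and position cannot be told apart either. The number of arrays limits the precision.

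Calb2 lies on chromosome 8, from 110142526 to 110168212 of GRCm38.p6. Levels are given as background-corrected, quantile-normalised log2 signal, on which 1 unit is a doubling, and the dimmest probe above background on an array lay between 4.96 and 5.85. The shown probe was above background on 22 of 24 arrays. Calb2 had 10.09, 9.94 and 9.82 in SMA MMC, against 10.37, 10.40 and 10.99 in WT MMC. In the LMC it had 6.96, 9.04 and 7.61 in SMA mice and 6.63, 7.34 and 7.27 in WT mice. MMC arrays of either genotype were thus all above every LMC array. In the DRG it had 4.60, 5.44 and 4.70 in SMA mice, where 1 of 3 arrays was above background, and 7.01, 5.86 and 5.28 in WT mice, where all 3 were. In the raphe it had 9.36, 10.06 and 10.36 in SMA mice and 10.48, 10.45 and 10.16 in WT mice. Ordered by mean, Calb2 ran from WT MMC, WT raphe, SMA MMC and SMA raphe down to SMA LMC, WT LMC, WT DRG and SMA DRG. Of these 7 neighbouring pairs, the ranges did not overlap between WT raphe and SMA MMC and between SMA raphe and SMA LMC; the 5 other pairs overlapped.

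Pvalb lies on chromosome 15, from 78191112 to 78206400 of GRCm38.p6, and its probe was above background on 20 of 24 arrays. In the DRG it had 11.05, 10.97 and 11.06 in SMA mice and 11.59, 11.59 and 11.11 in WT mice. In the LMC it had 7.27, 9.38 and 8.03 in SMA mice and 8.16, 8.66 and 8.29 in WT mice. Every DRG array was above every other array. In the MMC it had 7.41, 6.19 and 6.20 in SMA mice and 5.95, 7.68 and 8.19 in WT mice. In the raphe it had 4.78, 4.94 and 4.58 in SMA mice, none above background, and 5.58, 4.61 and 6.19 in WT mice, of which 2 were above it. The order by mean was WT DRG, SMA DRG, WT LMC, SMA LMC, WT MMC, SMA MMC, WT raphe and SMA raphe. Neighbouring ranges were apart between WT DRG and SMA DRG and between SMA DRG and WT LMC. Those of SMA MMC and WT raphe almost touched, at 6.191 for the lowest SMA MMC array and 6.189 for the highest WT raphe array.

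Calb1 lies on chromosome 4, from 15881264 to 15906709 of GRCm38.p6. Its single probe was above background on 1 of 24 arrays, SMA raphe replicate 2, at 5.29. The 8 group means lay between 4.39 and 4.84, and no fold or test is given. Elsewhere calbindin mRNA was not detectable with this probe, which does not show that it is absent.

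**Figure D1:**
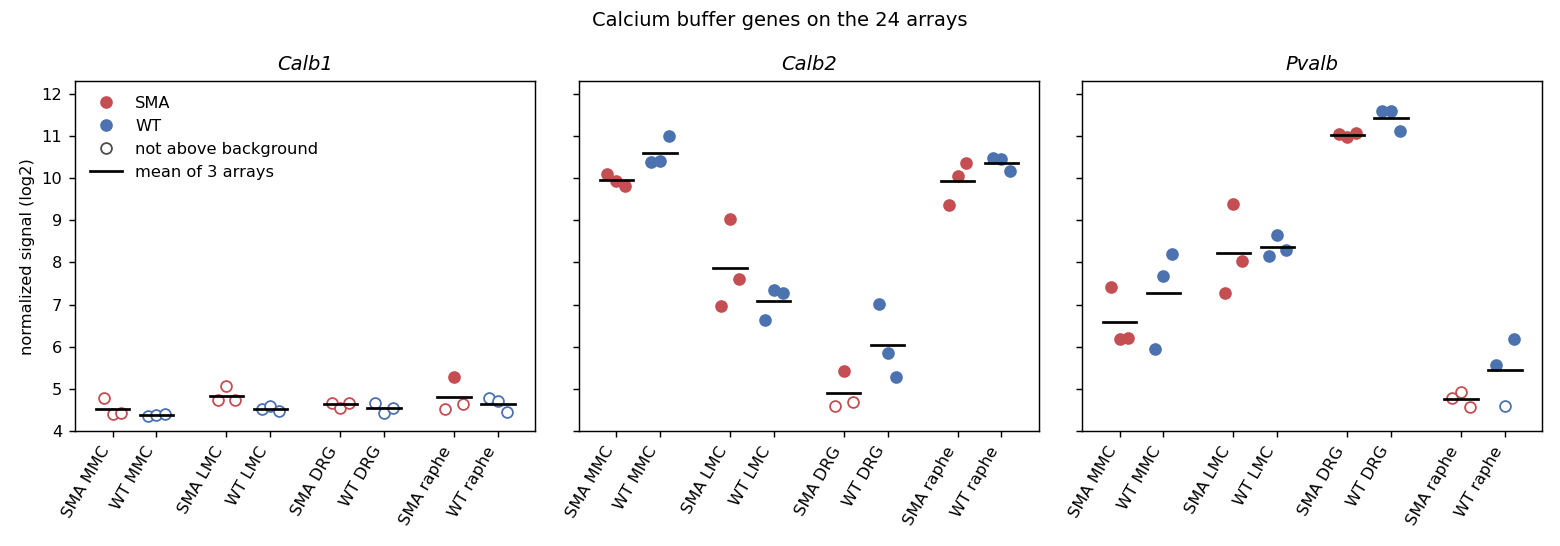
Normalized log2 signal (vertical axis) of Calb1, Calb2 and Pvalb on each of the 24 arrays, by group (horizontal axis), SMA in red and WT in blue; open circles were not above background and bars are means of 3 arrays. Calb2 is high in MMC and raphe, Pvalb is highest in DRG at 10.97 or above, and Calb1 stays near background.

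Pvalb was the member that differed most between tissues, and the sequence before its first listed start is shown to give the letters of its promoter. RefSeq promoters in GRCm38.p6 matched 1 of the 3 members, Pvalb, with 2 starts. The 250 bases before the first start are chr15:78206401-78206650 on the minus strand, printed 5′ to 3′ with the TATA-like letters TATTTAA in capitals.
Pvalb: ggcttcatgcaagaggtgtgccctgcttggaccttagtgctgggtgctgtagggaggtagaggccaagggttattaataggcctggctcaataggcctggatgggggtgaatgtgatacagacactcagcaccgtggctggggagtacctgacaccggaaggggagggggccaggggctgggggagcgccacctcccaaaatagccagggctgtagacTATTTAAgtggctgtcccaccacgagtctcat
TATTTAA begins 32 bases before the start. This motif was searched on both strands and is present in 4.18% of the 32851 promoter windows of the same length. The TATA box letters TATAAA, held by 12.37% of the windows, were not found on either strand here. The core letters known for RUNX factors, TGTGGT, held by 14.05% of the windows, were not found either. The window before the second Pvalb start, chr15:78204238-78204487, held none of these 3 motifs. The array data do not tell the starts apart.

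The first comparison asked whether the motor columns differ in these buffers. In SMA mice Calb2 averaged 7.87 ± 1.06 in LMC and 9.95 ± 0.14 in MMC (SD, n = 3 each), 4.22-fold lower in LMC. The difference was -2.08 on the log2 scale (SE 0.449, 95% interval -3.01 to -1.15, limma adjusted p = 0.00678), and no SMA LMC array reached the lowest SMA MMC array. In this comparison 8.3% of the 8902 genes tested passed, 739 in all. The share of those genes whose arrays did not overlap was not computed. Without SMA LMC replicate 2, the difference was -2.66 (limma adjusted p = 8.05e-04). With only the 6 arrays compared in the fit, it was the same size and did not pass (limma adjusted p = 0.135); 7 genes passed in all. In WT mice, where the contrast was used to choose the gene, Calb2 averaged 7.08 ± 0.39 in LMC and 10.59 ± 0.35 in MMC (SD, n = 3 each), 11.4-fold lower in LMC.

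The second Calb2 probe was above background on fewer arrays, 11 of 24. It had 4.82, 5.23 and 6.24 in SMA LMC, against 6.12, 7.42 and 5.26 in SMA MMC. These ranges overlapped, the difference was -0.84, and the probe entered no test there because neither group was above background throughout. In WT mice it had 4.57, 4.79 and 4.95 in LMC, none above background, and 6.76, 5.13 and 4.57 in MMC, with 1 of 3 above it. Both probes placed the raphe high: the second had 7.19, 7.57 and 7.77 in SMA raphe and 7.90, 7.05 and 8.53 in WT raphe. Only by the shown probe did WT MMC arrays reach the WT raphe arrays. The large LMC to MMC step thus rests on the shown probe.

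Pvalb did not pass the test between the columns. It averaged 8.22 ± 1.07 in SMA LMC and 6.60 ± 0.70 in SMA MMC (SD, n = 3 each), a log2 difference of 1.62 (SE 0.528, 95% interval 0.53 to 2.72, limma adjusted p = 0.0579). The arrays overlapped, since SMA LMC replicate 1 had 7.27 and SMA MMC replicate 1 had 7.41. Without SMA LMC replicate 2 the difference was 1.05 (limma adjusted p = 0.308), and without SMA LMC replicate 1 it was 2.10 (limma adjusted p = 0.0226). In WT mice Pvalb averaged 8.37 ± 0.26 in LMC and 7.27 ± 1.17 in MMC (SD, n = 3 each), also overlapping.

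Markers of other cells also differed between the columns. Between SMA LMC and SMA MMC, 8.3% of all genes tested passed, the share to set beside the counts that follow. Of the 8 measured oligodendrocyte genes, 6 were tested between SMA LMC and SMA MMC, and 5 were lower and none higher, with a median difference of -2.81, against 0.08 over all genes tested. Their summed intensity was 853 to 2375 in SMA LMC and 7000 to 11107 in SMA MMC, and 1145 to 2490 in WT LMC and 8329 to 12432 in WT MMC. Mog was above background on no LMC array and on no WT MMC array, and Olig2 on no array of either column. Of the 7 astrocyte genes, 2 were lower in SMA LMC, with a median difference of -0.69; the sums were 8199 to 9641 in SMA LMC and 13493 to 16133 in SMA MMC, and 8787 to 9710 in WT LMC and 12061 to 15675 in WT MMC. Of the 9 measured genes of Renshaw cells and inhibitory interneurons, 6 were tested and 1 was lower in SMA LMC, with a median difference of -0.98 and sums of 1395 to 2978 in SMA LMC and 3379 to 4960 in SMA MMC. Of 10 motor neuron genes, 9 were tested and 3 were higher in SMA LMC, with a median difference of 0.64 and sums of 10783 to 12385 in SMA LMC and 6383 to 7555 in SMA MMC. Both LMC markers, Foxp1 and Aldh1a2, were higher in SMA LMC, with a median difference of 2.34. Chrna2, a Renshaw cell marker, was above background on no MMC array. The part of these cells in the Calb2 difference was not tested.

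**Figure D2:**
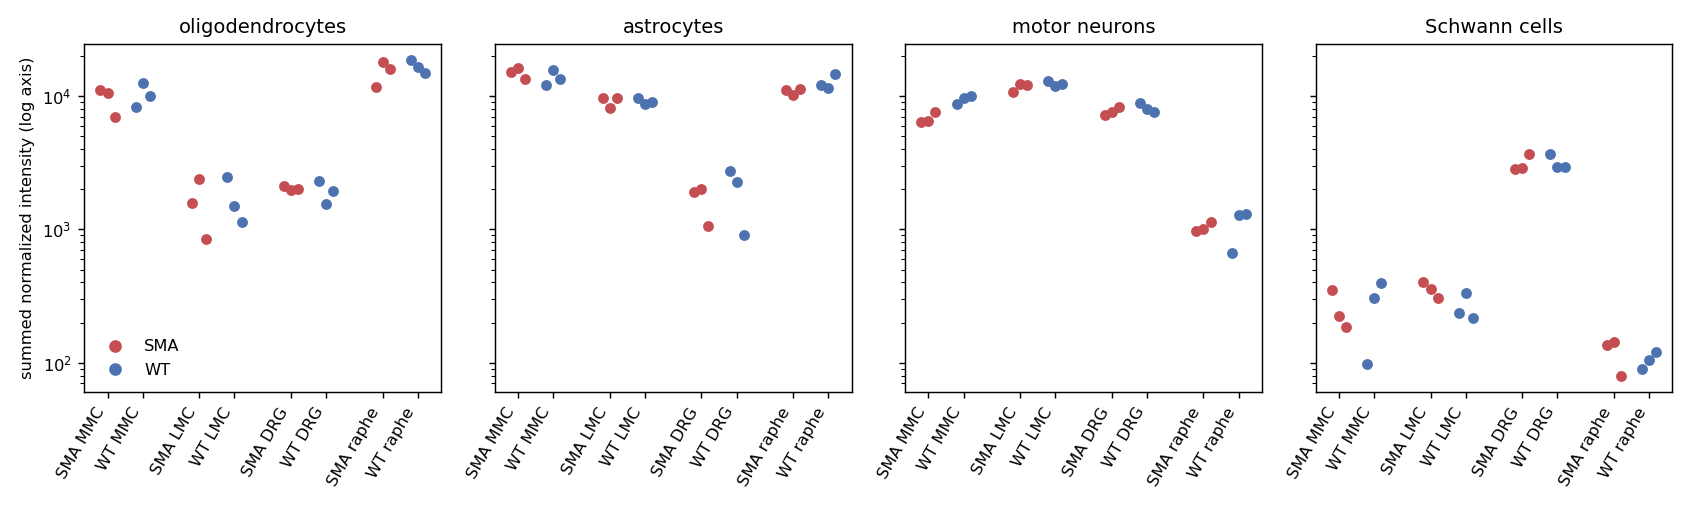
Summed normalized intensity (vertical log axis) of 4 marker lists on each array, by group (horizontal axis), SMA in red and WT in blue. Oligodendrocyte sums are 7000 or more on every MMC array and 2490 or less on every LMC array, and Schwann cell sums are 2849 or more on every DRG array.

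The second comparison asked whether SMA changed the buffers in each tissue. The WT MMC and WT LMC arrays are also those by which Calb2 was chosen, as high in MMC and low in LMC, and that choice by itself favours a Calb2 difference below 0 in the MMC and above 0 in the LMC. The Calb2 differences that use these arrays are therefore given as a description, with no test. Elsewhere Calb2 did not pass in DRG or raphe, and Pvalb did not pass in any of the 3 tissues in which it was tested. In the MMC the log2 difference of Calb2 was -0.64, with a model interval of -1.57 to 0.29. All 3 SMA MMC arrays were below all 3 WT MMC arrays for Calb2, as for 6.17% of the 8770 genes tested, and 1.3% of those genes passed the test, 114 in all. The mean of both Calb2 probes differed by 0.073 in the MMC, so the sign rests on the shown probe. Pvalb differed by -0.67 in the MMC (95% interval -1.76 to 0.42, limma adjusted p = 0.594), with overlapping arrays; without WT MMC replicate 1 this was -1.33 (limma adjusted p = 0.206). Summed motor neuron markers were 6383 to 7555 in SMA MMC and 8648 to 9943 in WT MMC. Of the 9 tested, 5 had a difference above 0 and 4 below 0, and 2 passed as lower. Their median difference was 0.041, against 0.056 over all genes tested. The part of motor neurons in the Calb2 and Pvalb values was not tested.

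In the LMC the difference of Calb2 was 0.79, with a model interval of -0.14 to 1.72. Without SMA LMC replicate 2, which held the highest Calb2 and Pvalb of the LMC arrays, it was 0.21. Pvalb differed by -0.15 (95% interval -1.24 to 0.95, limma adjusted p = 0.965), and by -0.72 without that array; without SMA LMC replicate 1 the sign turned, to 0.33. In this tissue 0.022% of the genes tested passed. The size of the Calb2 difference and the sign of the Pvalb difference thus depended on single arrays.

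In the DRG Calb2 differed by -1.14 (SE 0.449, 95% interval -2.07 to -0.21). Its unadjusted p was 0.0185 and its limma adjusted p = 1.00; the arrays overlapped, and 2 of 3 SMA DRG arrays were not above background. In the DRG 0.0101% of the genes tested passed, 1 gene in all. Pvalb differed by -0.40 there (95% interval -1.50 to 0.69, limma adjusted p = 1.00). All 3 SMA DRG arrays were below all 3 WT DRG arrays for Pvalb, as for 5% of the genes tested.

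In the raphe Calb2 differed by -0.44 (95% interval -1.37 to 0.49, limma adjusted p = 0.965), and 0.244% of the genes tested passed. Summed serotonergic neuron markers were 8889 to 11603 in SMA raphe and 5290 to 7731 in WT raphe. All 5 tested had a difference above 0 and none passed. Sums for Renshaw cells and inhibitory interneurons were 1565 to 6194 in SMA raphe and 1109 to 1844 in WT raphe. Of the 6 tested, 5 had a difference above 0 and 1 below 0, and 1 passed as higher. The part of these cells in the Calb2 value was not tested. Pvalb was not tested in the raphe, since it was above background throughout in neither group. Over the mean of the 4 tissues, the SMA difference was -0.36 for Calb2, again as a description, and -0.48 for Pvalb (limma adjusted p = 0.818), where 0.0536% of the genes passed. The SMA difference in the motor columns minus that in DRG and raphe was 0.87 for Calb2, untested for the same reason, and 0.14 for Pvalb (95% interval -0.96 to 1.23, limma adjusted p = 0.967). For that difference of differences 0.0179% of the genes passed. Each interval of a tested difference within a single tissue still held a difference of 1 unit in one direction.

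**Figure D3:**
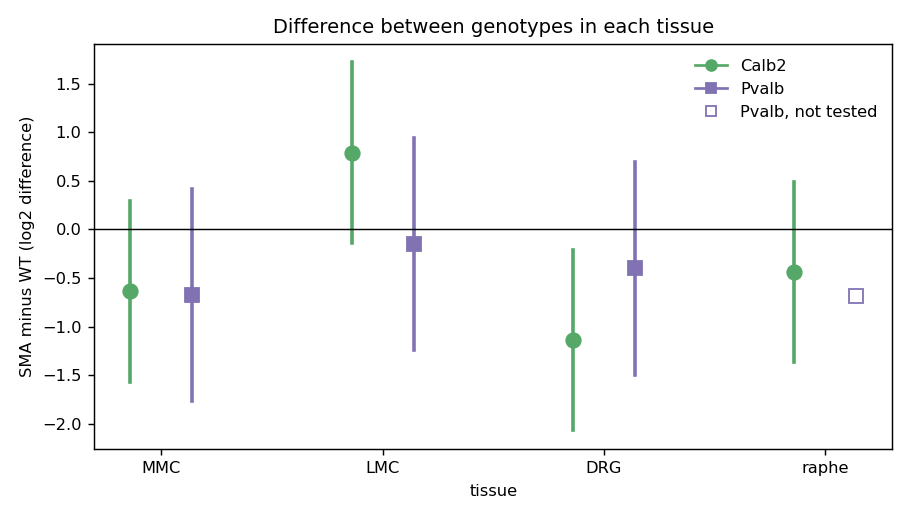
SMA minus WT log2 difference (vertical axis) of Calb2 and Pvalb in each tissue (horizontal axis), with 95% intervals from the model as bars; the open square, Pvalb in raphe, was not tested, and Calb2 in MMC and LMC is a description. Among the tested differences, every interval holds 0 but that of Calb2 in DRG, -2.07 to -0.21, which did not pass after adjustment.

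The third comparison set the tissues against each other, with both genotypes averaged. Among the motor column arrays are the WT arrays by which Calb2 was chosen, so Calb2 in DRG or raphe against the motor columns is described without a test. Calb2 averaged 5.48 in DRG and 8.87 in the motor columns. It was at least 9.62-fold lower in DRG. For this bound, each of 2 SMA DRG arrays not above background was raised to the lowest signal among probes above background on it. Such a bound, here and below, covers only signals not above background in this normalization. It does not cover the spread of arrays, another probe or other processing. In SMA mice alone, whose arrays were not used in the choice, Calb2 in DRG differed by -5.04 from MMC and by -2.96 from LMC. Pvalb averaged 11.23 in DRG and 7.62 in the motor columns, 12.2-fold higher in DRG (log2 difference 3.61, SE 0.323, limma adjusted p = 3.81e-09), with no overlap of arrays. For DRG against motor columns 44.7% of the genes tested passed, so a call there is common. The share of genes without overlap was not computed for it. Between these tissues the second Calb2 probe differed by -0.55.

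Calb2 averaged 10.15 in raphe and 8.87 in the motor columns, 2.42-fold higher in raphe. In SMA mice alone the raphe differed by -0.022 from MMC and by 2.06 from LMC. That mean joins 2 unlike columns. By the shown probe, raphe arrays overlapped with MMC arrays in both genotypes and were above all LMC arrays. By the second probe, WT raphe arrays, at 7.05 to 8.53, were all above WT MMC arrays, at 4.57 to 6.76. SMA raphe and SMA MMC arrays overlapped by that probe too. Pvalb was at least 4.78-fold lower in raphe than in the motor columns (limma adjusted p = 1.79e-06), measured means being 5.11 in raphe and 7.62 in the motor columns. The bound raises the 3 SMA raphe arrays and the 1 WT raphe array not above background in the same way. For raphe against motor columns 50% of the genes tested passed.

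Between DRG and raphe the genes differed in opposite directions. Calb2 was at least 23.3-fold lower in DRG than in raphe, with measured means of 5.48 in DRG and 10.15 in raphe (limma adjusted p = 4.03e-11). Pvalb was at least 58.5-fold higher in DRG than in raphe, with measured means of 11.23 in DRG and 5.11 in raphe (limma adjusted p = 6.58e-12). No arrays overlapped for either gene, and the share of all genes without overlap was not computed. Of the genes tested, 32.2% passed. In the deposited log2 values these differences were smaller, at -2.18 for Calb2 and 3.21 for Pvalb. There Calb2 differed from the motor columns by -1.42 in DRG and 0.76 in raphe, and Pvalb by 2.46 in DRG and -0.75 in raphe. The second Calb2 probe gave -2.73 for DRG against raphe. All of these comparisons share arrays with one another.

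Markers of the known Pvalb sources were read in the same arrays. Of the 7 measured skeletal muscle genes, Acta1, Tnnt3 and Mybpc2 were above background on no DRG array, whereas 2 of the 7 were above it on all 3 SMA DRG arrays and 1 on all 3 WT DRG arrays. The list summed to 318 to 381 in SMA DRG and 293 to 347 in WT DRG, overlapping with the 271 to 595 of the raphe and the 236 to 581 of the motor columns. Runx3, a factor of proprioceptors, was above background on none of the 24 arrays. Ntrk3, their neurotrophin receptor, averaged 7.54 in SMA DRG and 7.35 in WT DRG, against 10.09 in SMA raphe, 10.24 in WT raphe and 9.17 to 10.23 in the motor columns. The 4 measured proprioceptor genes summed to 2056 to 2649 in SMA DRG and 1967 to 2683 in WT DRG. They summed to 1323 to 2163 in SMA raphe and 2120 to 2916 in WT raphe, where Pvalb was lowest, and to 705 to 1999 in the motor columns. Schwann cell genes, 3 measured, summed to 2849 to 3671 in SMA DRG and 2919 to 3694 in WT DRG, against 78.9 to 142 in raphe and 98.5 to 404 in the motor columns. Of the 3 proprioceptor genes tested, 1 passed as higher and 2 as lower in DRG than in the motor columns. Against raphe, 1 passed as higher and 1 as lower. All 5 measured sensory neuron genes passed as higher in DRG in both comparisons. Over all genes tested, 44.7% and 32.2% passed. Sensory neuron genes summed to 5997 to 6286 in SMA DRG and 5345 to 7612 in WT DRG. Their sums were 1072 to 1534 in raphe and 147 to 258 in the motor columns. The part of any of these cells in the Pvalb level was not tested.

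Likeness of pattern was measured as the root mean square difference over the 8 group means, each gene centred on its own mean, across 11197 genes. Nearest to Calb2 were Cldn11 at 0.346, Aqp4 at 0.555, Kcne1l at 0.634, Gfap at 0.687 and Cldn5 at 0.731, against a median of 2.09 over all genes. Cldn11 encodes a claudin of myelin and belongs to the oligodendrocyte list used above. Aqp4, a water channel, and Gfap, an intermediate filament, belong to the astrocyte list, and Cldn5 encodes a claudin of blood vessels. Nearest to Pvalb were Pmp22 at 0.428, Ppp1r1c at 0.518, Anxa5 at 0.523, Piezo2 at 0.619 and Synm at 0.781, against a median of 2.28. Pmp22 encodes a protein of peripheral myelin and belongs to the Schwann cell list, Anxa5 encodes a calcium-dependent lipid-binding protein, and Piezo2 encodes the mechanically gated channel of touch and stretch neurons. The points share arrays and normalisation, and the likeness is a description.

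**Figure D4:**
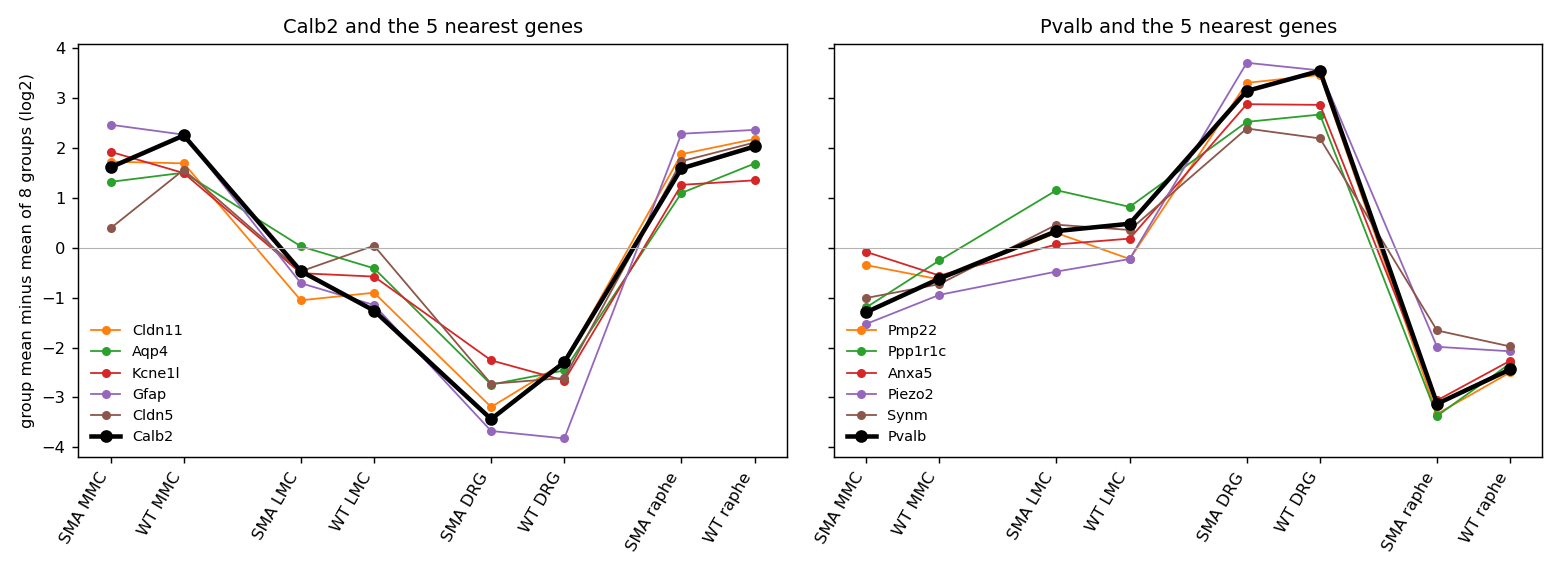
Group mean minus the mean over the 8 groups (vertical axis, log2) for Calb2 and Pvalb in black and the 5 genes nearest to each in colour, by group (horizontal axis). Calb2 and its neighbours lie above their own mean in MMC and raphe and lowest in DRG, and Pvalb and its neighbours peak in DRG.

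Other genes of calcium handling were read from 3 lists. Of 38 other EF-hand buffers and sensors, 36 were measured. Of all genes tested between genotypes, 1.3% passed in the MMC, 0.022% in LMC, 0.0101% in DRG and 0.244% in raphe. Of the EF-hand genes, 1 of 21 tested in the MMC passed and none of 22 in LMC, 25 in DRG or 21 in raphe. That gene was Tesc (tescalcin, an EF-hand regulator of a proton exchanger), which averaged 7.33 ± 0.33 in SMA MMC and 9.08 ± 0.17 in WT MMC (SD, n = 3 each), a difference of -1.75 (SE 0.416, limma adjusted p = 0.0352). The call was lost in 5 of 6 fits that left out 1 array, where it ranged from -1.94 to -1.64 with a limma adjusted p of 0.0305 to 0.0960.

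Between SMA LMC and SMA MMC, 1 of the 22 tested EF-hand genes was higher and 1 lower, a share near the 8.3% of all genes tested. Tesc averaged 9.30 ± 1.10 in SMA LMC and 7.33 ± 0.33 in SMA MMC (SD, n = 3 each; difference 1.96, limma adjusted p = 0.00624). S100a6, a small EF-hand protein of glia and other cells, averaged 6.70 ± 0.49 in SMA LMC and 8.38 ± 0.14 in SMA MMC (difference -1.68, limma adjusted p = 0.0103). The list's median was 0.08, the same to 2 decimals as that of all genes tested. With only these 6 arrays in the fit, neither passed.

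Between genotypes, at most 1.3% of all genes tested passed in any tissue. Of 22 calcium pumps, exchangers and mitochondrial uptake genes, 20 were measured, and none of the 17 tested passed between genotypes in any tissue. In SMA LMC 3 of 16 tested were higher than in SMA MMC and none lower, with a median of 0.47, against 0.08 over all genes tested, of which 8.3% passed. They were Atp2a2, the pump of the endoplasmic reticulum (0.61, limma adjusted p = 0.0116), Slc24a2 (0.81, limma adjusted p = 0.0281) and Slc8a1 (0.56, limma adjusted p = 0.0296), which are exchangers that extrude calcium. Without SMA LMC replicate 2 none of the 3 passed, with limma adjusted p-values of 0.0668, 0.116 and 0.0811. Of the 6 fits that left out 1 array, the call held in 5 for Atp2a2, 3 for Slc24a2 and 2 for Slc8a1. Of 21 measured endoplasmic reticulum genes, 15 were tested between SMA LMC and SMA MMC, and the calcium sensor Stim1 alone passed (-1.29, limma adjusted p = 0.00641); between genotypes none passed in any tissue. With only the 6 arrays compared in the fit, none of these 3 and not Stim1 passed.

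Between tissues EF-hand genes passed the test in both directions. In DRG against the motor columns 7 of 28 tested were higher and 10 lower, where 44.7% of all genes tested passed. S100a6 averaged 11.06 in DRG and 7.47 in the motor columns (difference 3.59, limma adjusted p = 1.72e-11), close in size to the difference of Pvalb. Kcnip1, a potassium channel partner, averaged 7.33 in DRG and 9.69 in the motor columns (-2.36, limma adjusted p = 1.03e-08), and the neuronal sensor Vsnl1 averaged 10.70 in DRG and 12.19 in the motor columns (-1.50, limma adjusted p = 4.69e-13).

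In raphe against the motor columns 3 of 24 EF-hand genes were higher and 11 lower, where 50% of all genes tested passed, and Tesc averaged 5.15 in raphe and 8.95 in the motor columns (-3.80, limma adjusted p = 6.87e-11). In DRG against raphe 11 of 27 were higher and 7 lower, with a median of 0.41, against 0.052 over all genes tested, of which 32.2% passed. The release channel Ryr2 averaged 7.73 in DRG and 6.90 in raphe, both below the 10.38 of the motor columns (limma adjusted p = 1.64e-09 for DRG and 3.43e-11 for raphe against the motor columns).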

How the data were processed

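Total RNA was amplified with a system for picogram amounts, per the labels' protocols, and hybridised to single-colour bead arrays. Per the file headers, the authors deposited bead intensity values with detection p-values for 45281 probes, and a table of log2 values whose normalization was not given in the sources used here. The submitters' processing notes name GenomeStudio. Between 23.9 and 38.5% of an array's signals lay below 0, so background had been subtracted.

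From the intensities, normexp background correction (negative controls inferred from the detection p-values, offset 16), quantile normalization and log2 were computed with limma 3.58.1 in R 4.3.3. Of the probes, 34885 had 1 gene symbol, 18 several and 10378 none; each gene is its probe of highest mean. The 11199 genes with detection p below 0.05 on all 3 arrays of at least 1 group entered 1 model of 8 group means with a variance trend (16 residual degrees of freedom). A gene is tested where 1 compared group was above background throughout, and p-values are Benjamini-Hochberg adjusted over all genes tested, called below 0.05. Of the 3 members 2 passed this filter. Genes of like pattern are the 5 nearest; of the other calcium genes, those named are among the up to 5 past the threshold in each direction per list and comparison. The model was also run on simulated data with planted changes in SMA MMC, normal spread and no differences between tissues. That run does not show how the model behaves near background or with outlying arrays. Alternatives were the deposited log2 values, offset 50, no quantile step, the mean of detected probes, no filter, only the arrays compared, array weights, no variance trend, a replicate block, leaving out each array and, chosen after seeing the data, the other Calb2 probe.

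The members, lists and tests were chosen with earlier results of these data known. Samples were grouped by their titles. Same-numbered SMA and WT arrays of a tissue deviated together with correlations of -0.09 to 0.32, over 0.1 in 2 of 12 pairs, so the numbers were not taken as pairs. Same-numbered arrays of different tissues within a genotype had correlations of -0.38 to 0.21, over 0.1 in 2 of 36 pairs. Arrays of different tissues entered the model as independent, and the titles do not say whether they share mice.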

Additional observations from a re-analysis of the deposited data

How the results depend on the processing

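The tissue differences of Calb2 and Pvalb kept their sign in every setting run, and their call where tested, but not their size. Over the settings that keep all arrays compared, those of Calb2 ran from -3.39 to -0.55 (DRG against motor columns), 0.76 to 2.18 (raphe against motor columns) and -4.82 to -2.18 (DRG against raphe), and those of Pvalb from 2.46 to 3.72, -2.53 to -0.75 and 3.21 to 6.21. The values nearest 0 came from the deposited log2 values, save -0.55, from the other Calb2 probe; the cause was not tested. The other Calb2 probe gave 0.78 in the MMC and 0.0067 in the DRG for SMA against WT, 0.28 over the mean of tissues, and -0.84 for SMA LMC against SMA MMC, and the mean of detected probes gave 0.073 in the MMC; the cause was not tested. Calb2 in SMA LMC against SMA MMC was -2.08 and not called with only the arrays compared, which leaves fewer arrays for the spread. Pvalb in SMA LMC against SMA MMC passed with offset 50 (1.35) and with no quantile normalization (1.92). The Pvalb difference of differences was -0.33 with array weights.

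Leaving out 1 array moved the SMA difference of Calb2 from -0.75 to -0.44 in MMC, 0.21 to 1.24 in LMC, -1.52 to -0.66 in DRG and -0.66 to -0.16 in raphe, and that of Pvalb from -1.33 to -0.21 in MMC, -0.72 to 0.33 in LMC, -0.56 to -0.32 in DRG and -1.12 to -0.32 in raphe. The range was -2.66 to -1.62 for Calb2 and 1.05 to 2.10 for Pvalb in SMA LMC against SMA MMC, and -0.19 to 0.38 for the Pvalb difference of differences.

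With a replicate block no call on Calb2 or Pvalb changed (Calb2 in SMA LMC against SMA MMC, limma adjusted p = 0.00837), the call on Tesc in the MMC was lost (limma adjusted p = 0.0598), and the numbers of genes called were 50 (MMC), 1 (LMC), 1 (DRG) and 11 (raphe); 11 of 24 arrays correlated best with their own number in the other genotype. Elsewhere the 114 genes called in MMC became 49 with no quantile step, 50 with no filter, 3 with only the arrays compared and 36 with array weights. The 2 in LMC became 4, 1 and 4 with offset 50, only the arrays compared and array weights; the 1 in DRG became 40 with array weights; the 23 in raphe became 37 with the deposited values, 14 with no quantile step, 3 with only the arrays compared and 62 with array weights. The 739 in SMA LMC against SMA MMC became 480 with no filter, 7 with only the arrays compared and 432 with array weights. The 6 over the mean of tissues became 3 with no quantile step and 32 with array weights, and the 2 of the difference of differences became 5, 6, 14 and 0 with the deposited values, the mean of detected probes, array weights and the block. Signals near background limit Calb1 everywhere, Calb2 in DRG and Pvalb in raphe.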
